A study of Mus musculus with 76 samples.

Results

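A set of 10 genes of simple epithelia was followed through neural differentiation of mouse embryonic stem cells: the keratins Krt7, Krt8, Krt18 and Krt19, the junction and adhesion genes Cdh1, Epcam, Cldn6 and Cldn7, and the regulators Esrp1 and Grhl2. They were chosen by symbol, with earlier results of these data known, as 10 of the 38924 genes counted. Each had a column in the deposited table. The cultures came from embryonic stem cells of the inbred strains WSB/EiJ (WSB) and C57BL/6J (B6). They were sampled at 3 stages, called here NPC (neural progenitor), maturation and axon, and at each stage ID-8 was given to some cultures to inhibit the kinase DYRK1A, while control cultures went without it. At the axon stage, cultures were also either axotomized (cut) or left uncut. That gave 16 groups and 70 libraries of polyadenylated RNA: 6 libraries in each of the 4 NPC groups, 4 in each of the 4 maturation groups, and 3 or 4 in each of the 8 axon groups. The labels name no transgene or mutation, give neither the dose of ID-8 nor its duration, and do not say how many stem cell lines stand behind a strain. P-values therefore measure the spread between these libraries, part of which may be technical.

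Keratins of simple epithelia assemble as pairs of a type II protein (Krt7, Krt8) and a type I protein (Krt18, Krt19) into the intermediate filaments of single-layered epithelia. E-cadherin, the product of Cdh1, holds neighbouring epithelial cells together at adherens junctions, Epcam is an adhesion protein of the epithelial surface, and the claudins Cldn6 and Cldn7 seal tight junctions. Esrp1 directs the splicing of many transcripts toward their epithelial forms, and Grhl2 is a transcription factor that activates Cdh1 and claudin genes. Embryonic stem cells carry Cdh1 and Epcam themselves, and neural induction is accompanied by a switch from E-cadherin to N-cadherin. Zeb and Snail proteins, which drive the change from epithelial to mesenchymal form, repress epithelial genes through E-box sites of the letters CACCTG.

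An E-box was the one searched motif found at all members covered, and it was picked for display for that reason. Its part in the members' levels was not tested. The RefSeq promoter table of build GRCm38.p6 matched 6 of the 10 members by symbol (Krt7, Krt8, Krt18, Cldn6, Cldn7 and Epcam) in 7 windows, as Cldn7 has 2 starts. Cdh1, Krt19, Esrp1 and Grhl2 were not matched. Over the 250 bases before each start, CACCTG on either strand stood in 6 of 7 windows, covering all 6 matched genes, against 17.22% of the 32851 promoters in that table. The GC box GGGCGG stood in 4 of the 7 windows, against 32.74% of all promoters. The other motifs searched on both strands, AACCNGGTT of Grhl factors (0.24% of promoters), TGANTCA of AP-1 (6.75%) and TATAAA (12.37%), had no match in the 7 windows. The Grhl and AP-1 letters read the same on both strands, and no E-box here overlapped a GC box. The 6 windows with CACCTG held 53.6% to 66.0% of G and C, against a median of 52.4% over all promoters. The shares over all promoters were not matched for this content. These matches describe letters in a window and do not show that a factor binds there.

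The E-boxes of Krt7, Krt18, Cldn6, Cldn7 and Epcam are printed below with their flanks as 30 bases of GRCm38.p6, 5′ to 3′ on the gene's strand, with each E-box in capitals.
Krt7, chr15:101412347-101412376 (+): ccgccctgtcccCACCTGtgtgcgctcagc
Krt18, chr15:102027990-102028019 (+): aggggctaacacCACCTGctatcctttgtg
Cldn6, chr17:23679260-23679289 (+): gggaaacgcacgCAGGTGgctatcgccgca
Cldn7, chr11:69965312-69965341 (+): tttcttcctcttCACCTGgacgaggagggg
Cldn7, chr11:69965352-69965381 (+): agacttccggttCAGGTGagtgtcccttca
Epcam, chr17:87635780-87635809 (+): gccagtagggccCACCTGctggaggaccgg
Epcam, chr17:87635948-87635977 (+): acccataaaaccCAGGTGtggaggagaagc
The site of Krt8, within chr15:102004436-102004465 (-), is not printed. Counted from the RefSeq start, the E-box lay at -44 in Krt7, -111 in Krt8, -214 in Krt18, -93 in Cldn6, -97 and -57 in Cldn7, and -187 and -19 in Epcam. The sites of Krt7, Krt8, Cldn6 and Cldn7 fell inside the gene span of the GENCODE annotation given below, which starts farther upstream than this RefSeq start. Those of Krt18 and Epcam lay before the gene span.

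Epcam was the member with the strongest difference between the strains in untreated progenitors. The sequence below is that of GRCm38.p6 alone. No sequence of WSB was examined, so the printed bases do not bear on that difference. The whole 250 bases before the start of Epcam held both of the gene's E-boxes, again in capitals.
Epcam, chr17:87635729-87635978 (+): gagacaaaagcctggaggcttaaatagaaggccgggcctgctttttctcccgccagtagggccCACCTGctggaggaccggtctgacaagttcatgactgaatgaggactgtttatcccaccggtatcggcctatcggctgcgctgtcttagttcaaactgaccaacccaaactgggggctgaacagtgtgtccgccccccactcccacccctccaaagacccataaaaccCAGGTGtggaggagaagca
The stretch upstream of Cldn6, the member with the strongest response to ID-8, is shown from 250 bases before the RefSeq start to the first base before the annotated gene, and it held no E-box.
Cldn6, chr17:23679115-23679248 (+): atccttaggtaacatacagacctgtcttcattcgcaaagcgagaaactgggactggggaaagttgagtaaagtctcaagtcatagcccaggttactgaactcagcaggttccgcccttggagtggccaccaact

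In the annotation of GRCm38, Krt7 spans chr15:101411043-101430313 (+), Krt8 spans chr15:101996698-102004482 (-) and Krt18 spans chr15:102028180-102032027 (+), so that Krt8 and Krt18 lie head to head. Krt19 lies at chr11:100140810-100148665 (-) and Cldn7 at chr11:69964779-69967885 (+). Cdh1 spans chr8:106603351-106670246 (+), Epcam spans chr17:87635979-87651129 (+) and Cldn6 spans chr17:23679249-23682446 (+). Esrp1 lies at chr4:11331933-11386783 (-) and Grhl2 at chr15:37233036-37363569 (+). Krt8 shares 21.97% of its windows of 75 bases with the pseudogene Krt8-ps, which is not a column of the table, so part of the Krt8 count could come from that copy. Antisense genes that overlap Esrp1 and Grhl2 reached no more than 0.136 and 0.53 counts per 1e6 in any library.

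Library totals ran from 20.37 to 131.5, with a median of 37.42, in units of 1e6 expected counts. Levels are given as counts per 1e6 of a library's total (CPM), with repeat runs of a library summed. All 6 pan-neuronal markers (Map2, Tubb3, Rbfox3, Elavl3, Mapt, Snap25) averaged at least 1 CPM in every NPC and maturation group, and so did all 5 neural progenitor markers at NPC. The NPC libraries also held RNA of other cell types. Pou5f1, the transcription factor that defines pluripotent cells, averaged 54.4 ± 35.0 CPM in WSB ID-8 and 8.14 ± 2.25 in WSB control libraries, and 407 ± 110 CPM in B6 ID-8 and 133 ± 49.6 in B6 control libraries (SD, n = 6 each). In bulk RNA, fewer cells of a type and less RNA per cell cannot be told apart, and this holds for every level below.

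All members were highest at the NPC stage, and the later stages held a small part of that level. Per kb of merged exons, Krt18 led in all 4 NPC groups, at 35.8 CPM per kb in WSB ID-8, 64.3 in WSB control, 177 in B6 ID-8 and 253 in B6 control libraries, followed by Krt8. Cdh1 led the junction genes in all 4 NPC groups, at 17.8 CPM per kb in WSB ID-8, 11.7 in WSB control, 61.7 in B6 ID-8 and 33.4 in B6 control libraries. Cldn6 ranked 4th of the 10 members in B6 ID-8 libraries and 8th in B6 control libraries on this scale. Esrp1 and Grhl2 were lowest, at 0.306 to 2.86 CPM per kb. When the 16 groups are ordered by a member's mean CPM, neighbouring groups overlapped in all 15 pairs for Krt7, Krt8, Krt18, Krt19 and Cldn7. The pairs of neighbours that did not overlap were few. For Cldn6 they were NPC B6 ID-8 above NPC B6 control (95.4 and 9.6 CPM) and NPC WSB ID-8 above the highest later group (5.67 and 0.44 CPM). For Cdh1, Epcam, Esrp1 and Grhl2 there was 1 such pair each.

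**Figure D1:**
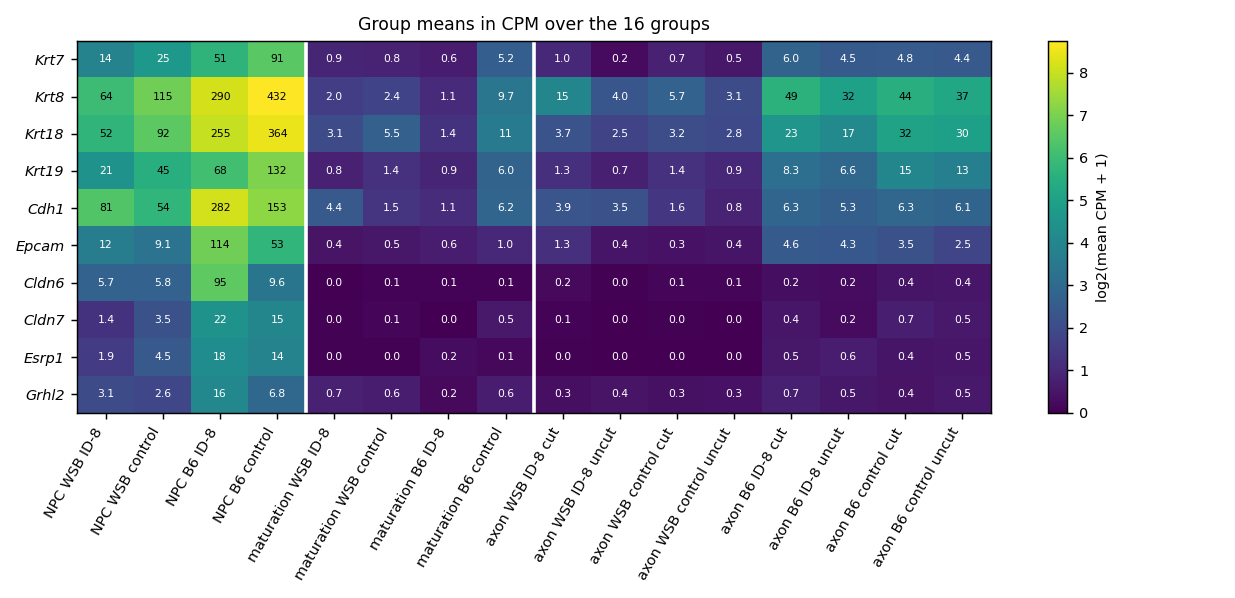
Mean level of each member in the 16 groups, in CPM (printed in the cells; colour is log2 of the mean CPM + 1), with white lines between the stages. The 4 NPC columns are the brightest in every row, and at the axon stage the 4 B6 columns are brighter than the 4 WSB columns for the keratins.

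In untreated progenitors, 9 of the 10 members were lower in WSB than in B6 and none was higher, where 25.0% of the 17248 genes tested were lower and 20.0% higher (edgeR quasi-likelihood test, Benjamini-Hochberg adjusted p under 0.05). The median log2 difference of the members was -1.69, against 0 over all genes tested. In 4 of them, Krt7, Krt8, Epcam and Esrp1, every WSB library lay below every B6 library, as it did for 12.8% of all genes tested. The second library block alone (replicates 4 to 6) called 1 of the 10, Epcam at -2.16 (adjusted p = 0.0423), while the first block alone called 9. Each of these fits held fewer libraries a group, and the share of all genes called in it is not given. The 2 counts therefore do not tell a change in the members from a change in calls over all genes.

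Among the keratins, Krt8 ran from 40.4 to 176 CPM in WSB control libraries with a median of 126, against 177 to 851 CPM with a median of 323 in B6 control libraries. The groups did not overlap, though the highest WSB and the lowest B6 library adjoined. The log2 difference was -1.78 ± 0.44 (SE, adjusted p = 0.00243 by edgeR). Krt7 had 8.4 to 36 CPM with a median of 26.3 in WSB control libraries, against 37.5 to 166 CPM with a median of 72.3 in B6 control libraries, again without overlap (-1.77 ± 0.39, adjusted p = 0.00101 by edgeR). Krt18, the partner of Krt8, had a log2 difference of -1.86 ± 0.45 and Krt19 one of -1.40 ± 0.39, and for both the groups overlapped.

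Epcam separated the strains most. It had 4.81 to 14.8 CPM with a median of 7.46 in WSB control libraries, against 26.3 to 76.9 CPM with a median of 55.9 in B6 control libraries. No WSB library came near the lowest B6 library, and the log2 difference was -2.53 ± 0.40 (adjusted p = 3.02e-05 by edgeR). Cdh1 had a log2 difference of -1.48 ± 0.39 and Cldn7 one of -2.08 ± 0.54, each with overlapping groups. Cldn6 did not pass the test: it averaged 5.77 ± 4.09 CPM in WSB control and 9.6 ± 4.51 CPM in B6 control libraries (SD, n = 6 each), with a log2 difference of -0.67 ± 0.58 (adjusted p = 0.355 by edgeR).

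Both regulators were lower in WSB progenitors. Esrp1 had 2.05 to 6.97 CPM with a median of 4.24 in WSB control libraries, against 8.31 to 21.1 CPM with a median of 14 in B6 control libraries, and the groups did not overlap (log2 difference -1.60 ± 0.33, adjusted p = 0.000523 by edgeR). Grhl2 averaged 2.63 ± 0.999 CPM in WSB control and 6.84 ± 2.12 CPM in B6 control libraries, a log2 difference of -1.34 ± 0.34 (adjusted p = 0.00303 by edgeR).

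With ID-8, all 10 members were lower in WSB than in B6 progenitors, where 34.0% of all genes tested were lower and 32.7% higher. In 9 of them, all but Krt19, every WSB library lay below every B6 library, as it did for 18.2% of all genes tested. Cldn6 had 2.33 to 17.6 CPM with a median of 3.22 in WSB ID-8 libraries, against 20.7 to 166 CPM with a median of 92.9 in B6 ID-8 libraries. Its log2 difference was -4.14 ± 0.63 (adjusted p = 9.1e-06 by edgeR), the largest of the 10. Cldn7 followed at -4.00 ± 0.58, Epcam at -3.25 ± 0.41 and Esrp1 at -3.20 ± 0.35. Grhl2, the 4 keratins and Cdh1 lay between -2.34 and -1.73. Markers of other cell types were lower in WSB as well, 10 of 11 for pluripotent cells, 8 of 10 for endoderm, 10 of 10 for trophoblast and 6 of 7 for choroid plexus, while 6 of 6 pan-neuronal markers were higher. Summed pluripotency markers were 90.8 to 489 CPM in WSB ID-8 and 1103 to 2641 CPM in B6 ID-8 libraries, and summed endoderm markers were 26.4 to 242 CPM in WSB ID-8 and 288 to 2731 CPM in B6 ID-8 libraries. Their part in the members' difference was not tested.

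**Figure D2:**
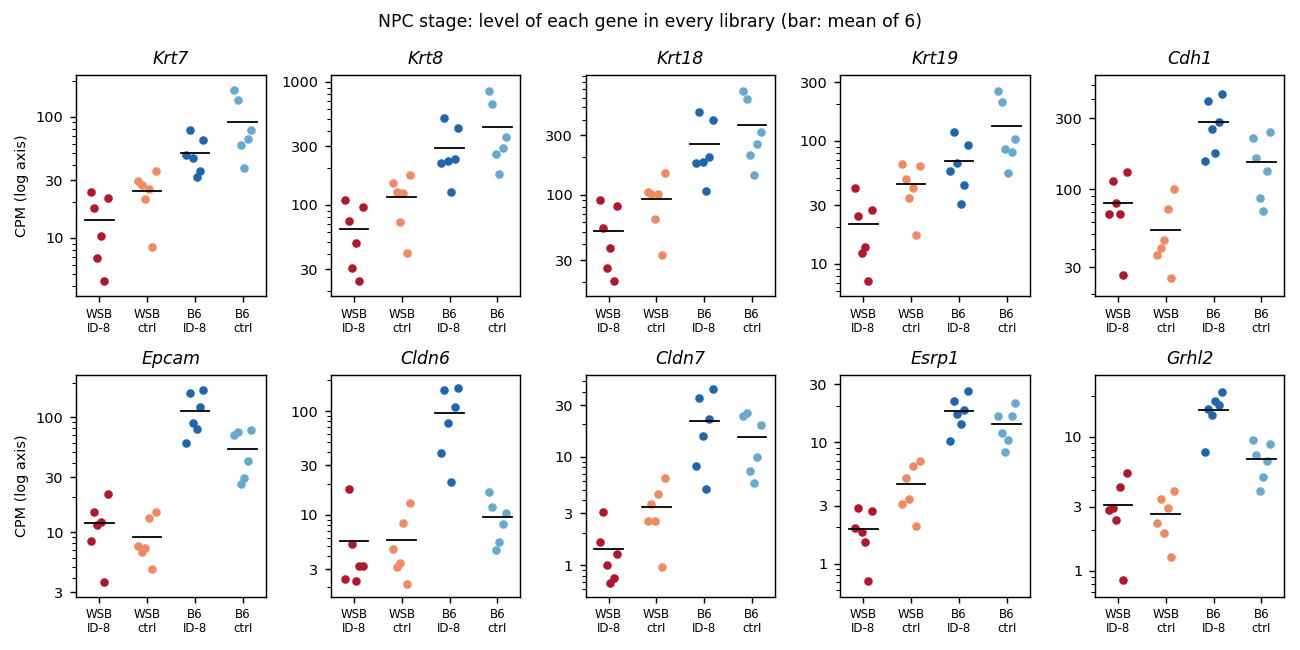
CPM of each member in every NPC library on log axes, with WSB ID-8, WSB control, B6 ID-8 and B6 control libraries from left to right and a bar at the mean of 6. The WSB libraries lie below the B6 libraries in most panels, and the Cldn6 panel shows the B6 ID-8 libraries at 20.7 to 166 CPM, above the other 3 groups.

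Apart from the other keratins, the other lists of epithelial genes held many lower calls in the same comparison of untreated progenitors. There, 25.0% of all genes tested were lower and 20.0% higher in WSB. Of the 15 other tight junction genes tested, 12 were lower and 1 higher in WSB, among them the claudins Cldn3 (-2.19 ± 0.39) and Cldn4 (-2.14 ± 0.41). Of 9 desmosome genes, 6 were lower, including the desmosomal cadherin Dsg2 (-2.04 ± 0.36), and of 17 other epithelial regulators and membrane genes 13 were lower, including the transcription factors Klf5 (-3.31 ± 0.27) and Grhl3 (-1.86 ± 0.29). Of 8 other keratins, 2 were lower and 1 higher. Among 10 epithelial-mesenchymal transition factors and mesenchymal genes, 3 were higher, including the repressor gene Zeb1 (0.64 ± 0.16), and 2 lower, including Snai1 (-1.26 ± 0.28). The counts for the other keratins and for these 10 genes were near the shares of all genes.

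Markers of pluripotent and trophoblast cells moved with these calls. The 11 pluripotency markers were all lower in WSB control libraries, and their summed level was 46.4 to 80.6 CPM there, against 488 to 1374 CPM in B6 control libraries. Of 10 trophoblast markers 9 were lower, with sums of 32.2 to 111 CPM in WSB control and 80.5 to 413 CPM in B6 control libraries. Endoderm markers did not stand out from all genes, with 2 of 10 lower where 25.0% of all genes were, and sums of 42.5 to 134 CPM in WSB control and 65.1 to 169 CPM in B6 control libraries. Choroid plexus markers summed to 3.98 to 6.89 CPM in WSB control and 16.5 to 45.8 CPM in B6 control libraries, without overlap. Krt5 and Trp63, which define stratified epithelium, averaged under 1 CPM in both groups. The 5 surface ectoderm markers summed to 6.56 to 70.2 CPM in WSB control and 26.6 to 78.4 CPM in B6 control libraries. Of those 5, 1 averaged at least 1 CPM in each group. The part of these cell types in the members' difference was not tested.

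ID-8 moved the members unevenly in B6 progenitors. The genes Cldn6, Grhl2 and Epcam rose and no member fell, where 18.4% of all genes tested rose and 22.0% fell. Cldn6 had 20.7, 39.8, 77.1, 109, 160 and 166 CPM in the 6 B6 ID-8 libraries, against 4.59 to 16.7 CPM with a median of 9.38 in B6 control libraries. Every treated library lay above every control library, as it did for 3.88% of all genes tested. The rise of Cldn6 was 10.7-fold in the fit (log2 difference 3.42 ± 0.61, adjusted p = 0.000218 by edgeR). Grhl2 had 7.64 to 21.4 CPM with a median of 16.6 in B6 ID-8 libraries, against 3.96 to 9.42 CPM with a median of 6.95 in B6 control libraries. The groups overlapped through the lowest treated library (1.26 ± 0.33, adjusted p = 0.00488 by edgeR). Epcam had 59.2 to 173 CPM with a median of 106 in B6 ID-8 libraries, against 26.3 to 76.9 CPM with a median of 55.9 in B6 control libraries, also with overlap (1.17 ± 0.38, adjusted p = 0.0175 by edgeR), and was not called without B6 ID-8 replicate 2 (0.99).

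Cdh1 did not pass the test, at 282 ± 113 CPM in B6 ID-8 and 153 ± 69.3 CPM in B6 control libraries (SD, n = 6 each; log2 difference 0.96, adjusted p = 0.0504 by edgeR). Cldn7 (0.62) and Esrp1 (0.44) did not pass either. The keratins had log2 differences of -0.71 for Krt7, -0.43 for Krt8, -0.38 for Krt18 and -0.79 for Krt19, none past the threshold. Each library block alone called 1 member, Cldn6.

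In WSB progenitors, ID-8 lowered 1 member, Esrp1, where 4.86% of all genes tested fell and 4.71% rose. It had 0.713 to 2.87 CPM with a median of 1.89 in WSB ID-8 libraries, against 2.05 to 6.97 CPM with a median of 4.24 in WSB control libraries, with overlap (-1.16 ± 0.33, adjusted p = 0.0298 by edgeR). The call was lost in each library block alone, and when any one of WSB control replicates 2, 4 and 6 or WSB ID-8 replicates 3, 4 and 5 was left out. The keratins had log2 differences between -1.11 and -0.79, and Krt19, the lowest, missed the threshold (adjusted p = 0.0763 by edgeR). Cdh1 averaged 81.4 ± 36.8 CPM in WSB ID-8 and 53.7 ± 27.9 CPM in WSB control libraries (log2 difference 0.65) and did not pass, and neither did Epcam (0.45) or Cldn6 (-0.05).

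The response to ID-8 itself differed between the strains for 1 member, where 1.76% of all genes tested had a lower and 1.44% a higher response in WSB. That was Cldn6, with a log2 difference of responses (WSB minus B6) of -3.47 ± 0.83 (adjusted p = 0.027 by edgeR). It was not called without B6 ID-8 replicate 2, one of the highest Cldn6 libraries. Esrp1 (-1.60, adjusted p = 0.0556) and Cldn7 (-1.92, adjusted p = 0.142) missed the threshold by edgeR.

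**Figure D3:**
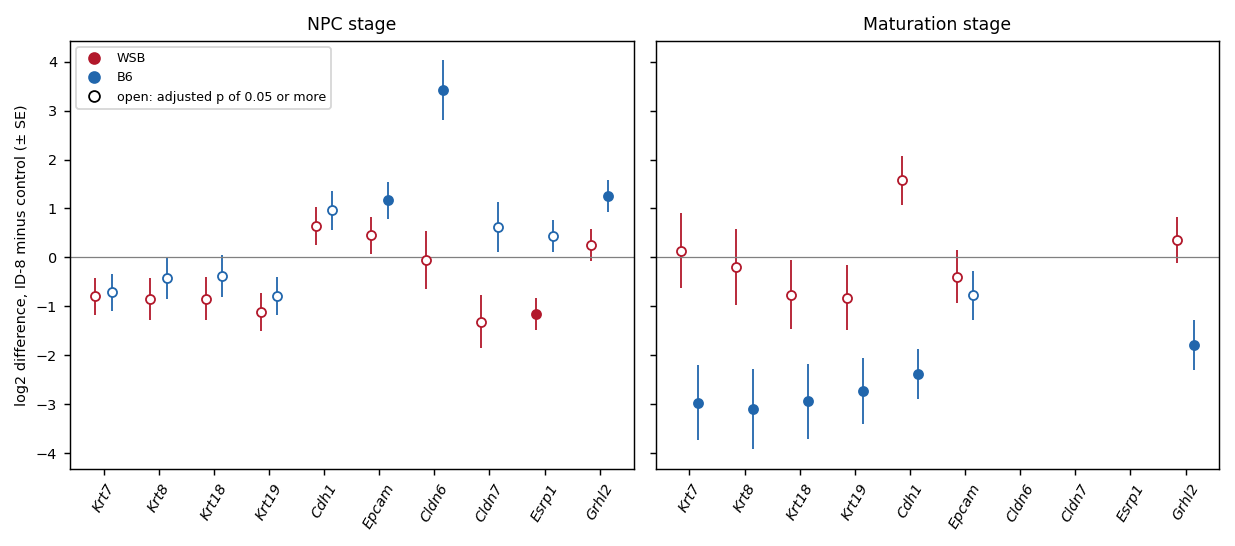
Log2 difference between ID-8 and control libraries for each member at the NPC and maturation stages, with WSB in red and B6 in blue, bars of ± 1 SE and filled points for an adjusted p under 0.05. At NPC the filled B6 points are Epcam, Cldn6 and Grhl2, all above 0, while at maturation the 6 filled B6 points lie between -3.10 and -1.79. Cldn6, Cldn7 and Esrp1 have no point at maturation because they were too low to test.

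Among the other epithelial lists, ID-8 raised 4 and lowered 1 of 15 tight junction genes in B6 progenitors. The occludin gene Ocln (2.86 ± 0.48) and Cldn1 (2.04 ± 0.47) rose most. Of 17 epithelial regulators and membrane genes, 3 rose, the vesicle-traffic gene Rab25 (2.21 ± 0.37), Klf5 (1.46 ± 0.25) and the protease inhibitor gene Spint2 (0.82 ± 0.30), and 1 fell, Grhl1 (-0.82 ± 0.31). A count of 3 in 17 is near the share of all genes that rose, 18.4%, and the 1 that fell is under the 22.0% of all genes. In B6, Zeb1 fell (-0.71 ± 0.16), at 72.6 ± 25 CPM in B6 ID-8 and 123 ± 14.8 CPM in B6 control libraries, and Snai2 rose (1.14 ± 0.23). In WSB progenitors, 3 of 9 desmosome genes fell, including desmoplakin, Dsp (-1.32 ± 0.36). Of the 17 regulators and membrane genes there, 5 fell, including the P-cadherin gene Cdh3 (-1.92 ± 0.43) and Ovol2 (-1.80 ± 0.45), and 1 rose, Klf5 (0.98 ± 0.26). The differences between the strains' responses passed the test for Rab25 (-2.37 ± 0.55) and Ovol2 (-2.15 ± 0.59).

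Endoderm markers moved with Cldn6 in B6: 8 of 10 rose with ID-8 and 1 fell, and their summed level was 288 to 2731 CPM in B6 ID-8 and 65.1 to 169 CPM in B6 control libraries. Gata4, a marker of endoderm, averaged 80 ± 49 CPM in B6 ID-8 and 4.71 ± 1.96 CPM in B6 control libraries. In WSB, where Cldn6 had a difference near 0, 3 endoderm markers rose and 2 fell, and the sums were 26.4 to 242 CPM in WSB ID-8 and 42.5 to 134 CPM in WSB control libraries. Choroid plexus markers also rose in B6, 6 of 7 tested, with sums of 66.9 to 351 CPM in B6 ID-8 and 16.5 to 45.8 CPM in B6 control libraries. Pan-neuronal markers fell in B6, 4 of 6, with sums of 181 to 1539 CPM in B6 ID-8 and 1049 to 3006 CPM in B6 control libraries, and so did 2 of 5 neural progenitor markers. Pluripotency markers rose in both strains, 9 of 11 in B6 and 11 of 11 in WSB. Trophoblast markers fell, 5 of 10 in B6 and 6 of 10 in WSB, and in WSB 4 of 5 mesothelium markers fell. The part of these cell types in the members' responses was not tested.

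Ratios within a library show which members kept step. Krt8 to Krt18 was 1.06 to 1.43 in all 24 NPC libraries, with medians of 1.20 in WSB ID-8, 1.22 in WSB control, 1.17 in B6 ID-8 and 1.19 in B6 control libraries. Cdh1 to Krt8 was higher with ID-8 in both strains, with medians of 1.39 in WSB ID-8 and 0.582 in WSB control libraries, and 1.07 in B6 ID-8 and 0.369 in B6 control libraries. In B6 the ranges of that ratio did not overlap, and in WSB they overlapped by 1 treated library at 0.625.

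The balance of the claudins shifted in B6. Cldn6 to Cldn7 was 3.91 to 4.96 in the 6 B6 ID-8 libraries and 0.471 to 0.95 in the 6 B6 control libraries, with no overlap. In WSB it was 1.48 to 5.73 with ID-8 and 0.841 to 2.27 in controls, with overlap. Cldn6 to Krt8 was 0.163 to 0.46 in B6 ID-8 and 0.0176 to 0.0311 in B6 control libraries, with no overlap, and 0.022 to 0.239 in WSB ID-8 and 0.0244 to 0.0731 in WSB control libraries, with overlap. Epcam to Cdh1 separated the strains rather than the treatments: it was 0.122 to 0.179 in WSB ID-8 and 0.148 to 0.21 in WSB control libraries, against 0.351 to 0.446 in B6 ID-8 and 0.302 to 0.464 in B6 control libraries. These ratios were given no test.

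**Figure D4:**
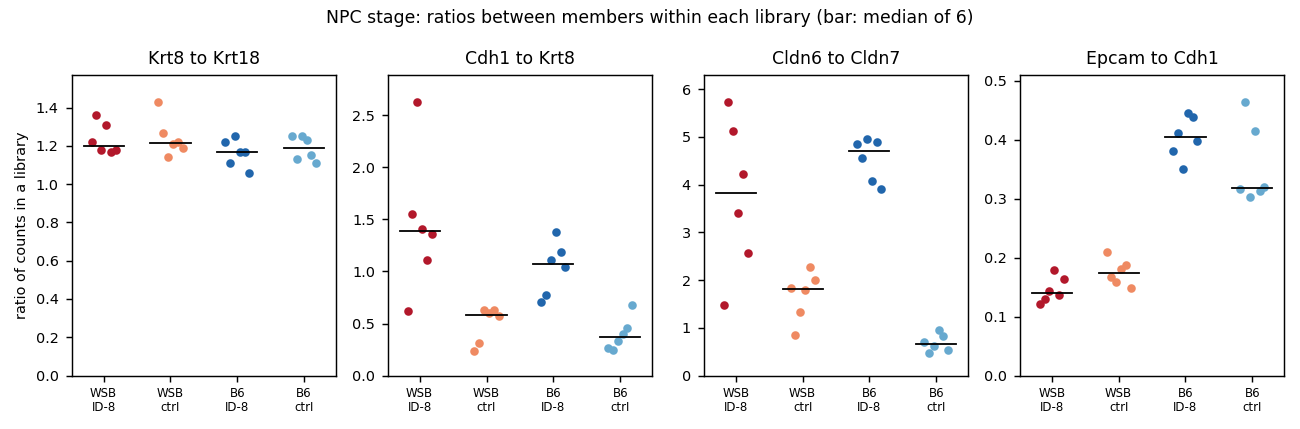
Ratios of counts between pairs of members within each NPC library, 6 libraries a group with a bar at the median; axes start at 0. The Krt8 to Krt18 ratio is flat across the groups at 1.06 to 1.43, Cldn6 to Cldn7 reaches 3.91 to 4.96 in B6 ID-8 libraries, and Epcam to Cdh1 is higher in B6 than in WSB in both treatments.

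From NPC to the later stages, all 10 members fell in untreated cultures of both strains. Between maturation and NPC, 33.1% of all genes tested fell and 38.4% rose in WSB, and 34.2% fell and 36.2% rose in B6. Between the axon and NPC stages, 26.4% fell and 26.4% rose in WSB, and 30.1% fell and 28.2% rose in B6. The axon and NPC stages were compared within 1 library block. The maturation libraries came from a block that held no NPC library, so stage and library block cannot be told apart there. Median log2 differences of the members were -4.99 in WSB and -4.89 in B6 for maturation minus NPC, and -6.91 in WSB and -4.01 in B6 for axon minus NPC. Pluripotency markers fell too, 9 of 11 in WSB and 10 of 11 in B6 for maturation minus NPC, and 8 of 11 in WSB and 10 of 11 in B6 for axon minus NPC; 1 rose in WSB at maturation. Trophoblast markers fell in 9 of 10 in WSB and 10 of 10 in B6 for maturation minus NPC, and in 7 of 10 in WSB, where 1 rose, and 6 of 10 in B6 for axon minus NPC. Summed pluripotency markers were 15.1 to 24.3 CPM in WSB control and 28.3 to 41 CPM in B6 control libraries at maturation, against 46.4 to 80.6 CPM in WSB control and 488 to 1374 CPM in B6 control NPC libraries. Of 5 neural progenitor markers, 4 fell in WSB and 3 in B6 for maturation minus NPC, and 2 in WSB and 3 in B6 for axon minus NPC. The part of these cell types in the members' fall was not tested.

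Cdh1 had 0.0898 to 11.4 CPM in the 46 later libraries, against 25.6 to 435 CPM in the 24 NPC libraries, without overlap. Cldn6 did not overlap either, at 0 to 0.922 CPM in later libraries and 2.18 to 166 CPM in NPC libraries. For the other 8 members the ranges overlapped. No share over all genes was taken for this overlap between stages, so it describes the members alone. Krt8 had 0.325 to 71.8 CPM with a median of 4.39 in later libraries, against 24.1 to 851 CPM with a median of 164 in NPC libraries, and 11 later libraries exceeded the lowest NPC library. Cldn6 and Esrp1 stayed below 1 CPM in all 46 later libraries, and Cldn7 and Grhl2 in 45 of 46. At those levels a library holds few reads of the gene: Cldn6 had under 3 counts in 22 of the 46, Cldn7 in 24 and Esrp1 in 21.

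At maturation, ID-8 was tested on 7 members, since Cldn6, Cldn7 and Esrp1 did not pass the filter on low counts. In B6, 6 of the 7 fell and none rose, where 9.41% of the 16954 genes tested fell and 7.71% rose. For Krt7, Krt19, Cdh1 and Grhl2 every treated library lay below every control library, as it did for 12.6% of all genes tested. Krt8 had 3.06, 0.411, 0.455 and 0.361 CPM in B6 ID-8 libraries, against 12.6, 19.1, 2.0 and 5.13 CPM in B6 control libraries. The groups overlapped through treated replicate 1 (log2 difference -3.10 ± 0.82, adjusted p = 0.017 by edgeR), and Krt8 was not called without B6 ID-8 replicate 2 or B6 control replicate 2. Krt7 had 0.956, 0.854, 0.264 and 0.464 CPM in B6 ID-8 libraries, against 7.67, 9.33, 1.19 and 2.42 CPM in B6 control libraries, without overlap (-2.97 ± 0.77, adjusted p = 0.0154 by edgeR). Krt18 fell by 2.94 and Krt19 by 2.73 on the log2 scale.

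Cdh1 had 1.04, 0.981, 1.77 and 0.774 CPM in B6 ID-8 libraries, against 7.61, 8.78, 3.37 and 4.96 CPM in B6 control libraries. The groups did not overlap, and the log2 difference was -2.38 ± 0.51 (adjusted p = 0.00482 by edgeR). Grhl2 had 0.225, 0.19, 0.192 and 0.0774 CPM in B6 ID-8 libraries, against 0.466, 0.555, 0.685 and 0.772 CPM in B6 control libraries, also without overlap (-1.79 ± 0.51, adjusted p = 0.0252 by edgeR). The Grhl2 call was lost without B6 ID-8 replicate 2 or 4 or B6 control replicate 3 or 4. Epcam did not pass, at -0.77. In B6, the difference at maturation was below 0 for Cdh1, Epcam and Grhl2 and that at NPC was above 0; the change between the stages was not tested.

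In WSB, no tested member passed for ID-8 at maturation by edgeR, where 5.89% of all genes passed. At an unadjusted p under 0.05 there was 1 member among 3369 genes, and DESeq2 called 1 member. That member was Cdh1, at 1.94, 2.79, 2.37 and 10.6 CPM in WSB ID-8 libraries, against 1.37, 1.07, 1.68 and 1.99 CPM in WSB control libraries. Treated replicate 4 lay far above the rest, and treated replicate 1 lay below the highest control (1.58 ± 0.50, adjusted p = 0.0787 by edgeR). With the culture experiment as a replicate block Cdh1 passed (1.54, adjusted p = 0.0488 by edgeR), where 14.2% of all genes passed. The second culture experiment alone called Krt8 (-1.86, adjusted p = 0.0333) and Krt19 (-2.52, adjusted p = 0.0129) as lower, and the first alone called 1 member.

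The difference between the strains' responses at maturation passed for 1 member, where 0.377% of all genes tested had a higher and 0.0826% a lower response in WSB. Cdh1 had a difference of responses (WSB minus B6) of 3.96 ± 0.71 on the log2 scale (adjusted p = 0.0204 by edgeR). The call was lost without B6 ID-8 replicate 4 or WSB control replicate 3. The first culture experiment alone called 3 members and the second none, each on fewer libraries and without the share of all genes called in the same fit.

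Between the strains at maturation, 3 of the 7 members tested were lower in WSB control than in B6 control libraries, where 7.39% of all genes were lower and 7.38% higher. They were Krt7 (-2.63 ± 0.76, adjusted p = 0.029), Krt19 (-2.09 ± 0.65, adjusted p = 0.0405) and Cdh1 (-2.01 ± 0.50, adjusted p = 0.0132 by edgeR). For Krt7, WSB control libraries had 1.13, 0.796, 0.666 and 0.739 CPM, against the 1.19 to 9.33 CPM of B6 control libraries given above. The first culture experiment alone called 7 members and the second alone 0, each on fewer libraries and without the share of all genes called in the same fit. The count was 1 without any one of B6 control replicates 1 and 2 or WSB control replicates 1, 2 and 4, and Krt7 was also lost without WSB control replicate 3.

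With ID-8 the direction was the other way for 2 members, Cdh1 (1.95 ± 0.50, adjusted p = 0.0139) and Grhl2 (2.06 ± 0.51, adjusted p = 0.0108 by edgeR), which were higher in WSB, where 9.28% of all genes were higher and 7.97% lower. Grhl2 had 0.397, 0.793, 0.66 and 1.06 CPM in WSB ID-8 libraries, against 0.0774 to 0.225 CPM in B6 ID-8 libraries, without overlap. Over all genes tested, 9.93% lay higher in WSB without overlap. Cdh1 was not called without WSB ID-8 replicate 4, the library at 10.6 CPM, where its difference was 1.05.

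Other epithelial lists moved with the members at maturation. With ID-8 in B6, 6 of 13 tight junction genes fell, led by the adhesion molecule gene F11r (-2.40 ± 0.42), and 1 rose. Of 8 desmosome genes, 4 fell, led by Ppl (-1.89 ± 0.29) and Dsg2 (-2.28 ± 0.40), and of 13 regulators and membrane genes 5 fell, led by Llgl2 (-1.91 ± 0.34) and St14 (-1.42 ± 0.25), while Cdh3 rose (1.92 ± 0.25). Of 4 mesothelium markers, 3 fell in B6, with sums of 1.68 to 4.36 CPM in B6 ID-8 and 7.9 to 28.5 CPM in B6 control libraries. In WSB, 2 of the 4 fell, Upk3b (-4.10 ± 0.80) and Upk1b (-3.91 ± 0.82), with sums of 1.26 to 9.16 CPM in WSB ID-8 and 10.2 to 16.8 CPM in WSB control libraries. Mesothelium is a simple epithelium that carries Krt7, Krt8, Krt18 and Krt19, and the part of such cells in the members' values was not tested.

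The Krt8 to Krt18 ratio, near constant at NPC, was lower at maturation, at 0.4 to 1.12 in WSB ID-8, 0.303 to 0.658 in WSB control, 0.361 to 1 in B6 ID-8 and 0.761 to 0.929 in B6 control libraries. In both control groups it lay below every NPC library.

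At the axon stage, strain was the contrast in which members passed the test with the library block as a term. In control uncut cultures 8 of 10 members were lower in WSB and none was higher, where 7.56% of the 18106 genes tested were lower and 5.68% higher. There, 3 members, Krt7, Epcam and Esrp1, lay lower in WSB without overlap, as did 12.6% of all genes tested. In control cut cultures 7 were lower and none higher, where 8.78% of genes were lower and 7.46% higher. In ID-8 uncut cultures 5 were lower and none higher, where 5.14% of genes were lower and 4.71% higher. In ID-8 cut cultures 3 were lower and none higher, where 1.16% of genes were lower and 2.08% higher. All B6 libraries belonged to 1 library block, and 1 WSB library of each group came from another, so the fit with the block as a term compares the strains within the shared block. Without that term the counts were 3 in control uncut, 4 in control cut and 0 in ID-8 cut cultures. With the shared block alone they were 2 in ID-8 uncut and 0 in ID-8 cut cultures. These counts stand without the share of all genes called in the same fits.

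Krt8 had 0.744, 1.97, 0.325 and 9.23 CPM in WSB control uncut libraries, against 29.2, 4.61, 59.6 and 53.3 CPM in B6 control uncut libraries. WSB replicate 4, the library of the other block, lay above the lowest B6 library, and the log2 difference was -5.16 ± 0.97 (adjusted p = 0.0012 by edgeR). The Krt8 differences in the other groups were -4.77 ± 0.95 in control cut, -4.67 ± 1.08 in ID-8 uncut and -3.66 ± 0.93 in ID-8 cut cultures. Krt7 had 0.0698, 0.89, 0.236 and 0.707 CPM in WSB control uncut libraries, against 6.45, 1.13, 5.52 and 4.58 CPM in B6 control uncut libraries, without overlap (-3.50 ± 0.76). Krt7, Krt8 and Krt18 passed in all 4 strain comparisons, and Krt19 in 3. In ID-8 cut cultures all 3 calls were lost without any one of WSB replicates 1, 2 and 4 or B6 replicates 2 and 3. In ID-8 uncut cultures, Krt8 and Krt18 were lost without WSB replicate 2, and Krt19 without any one of the 3 WSB replicates.

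Among junction genes and regulators, Epcam passed in 3 of the 4 comparisons. It had 0.766, 0.195, 0.177 and 0.541 CPM in WSB control uncut libraries, against 2.01, 0.785, 3.88 and 3.48 CPM in B6 control uncut libraries, without overlap but close (-2.57 ± 0.85, adjusted p = 0.0458 by edgeR). Cdh1 passed in control uncut cultures alone (-3.25 ± 0.99, adjusted p = 0.0315 by edgeR). Each of these control uncut calls was lost without any one of 6 of the 8 libraries: WSB replicates 2, 3 and 4 and B6 replicates 1, 3 and 4 for Epcam, and WSB replicates 1, 2 and 3 and B6 replicates 1, 3 and 4 for Cdh1. The Epcam call in ID-8 uncut cultures was lost without WSB replicate 2 or 3 or B6 replicate 3 or 4. Esrp1 had no count in any of the 4 WSB control uncut libraries, where a count of 3 over the group would be 0.0215 CPM, against a mean of 0.461 CPM in B6 control uncut libraries. Cldn7 passed in both control comparisons, although its level in B6 control uncut libraries was 0 to 0.885 CPM. Its call was lost without WSB replicate 3 in uncut and without WSB replicate 2 or 3 in cut cultures, and that of Esrp1 in cut cultures without WSB replicate 2 or 3 or B6 replicate 3. Cldn6 and Grhl2 passed in none of the 4, with 0.195 to 0.416 CPM of Grhl2 in WSB control uncut and 0.205 to 0.815 CPM in B6 control uncut libraries.

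**Figure D5:**
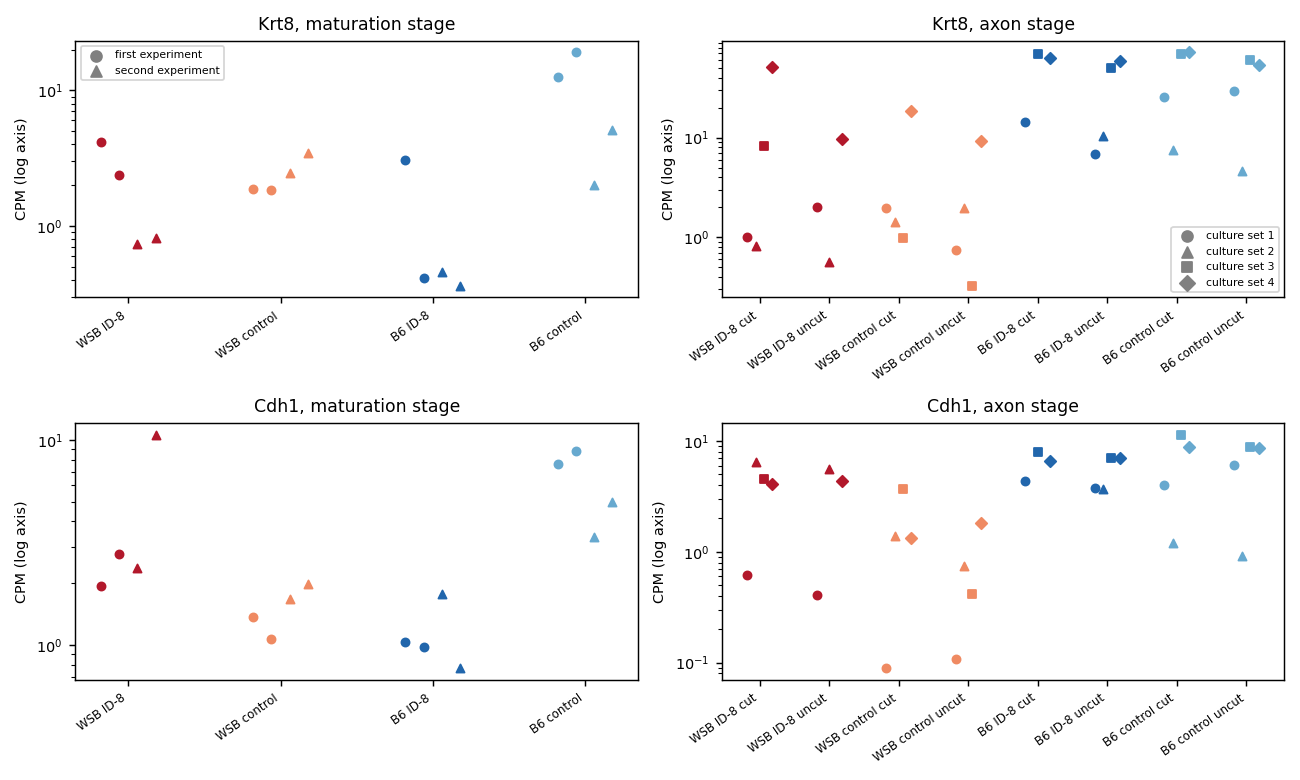
CPM of Krt8 and Cdh1 in every maturation and axon library on log axes, with symbols for the culture experiment or culture set and groups labelled along the x axis. Krt8 at the axon stage lies at 4.61 to 71.8 CPM in B6 libraries, with culture sets 3 and 4 above sets 1 and 2, and WSB libraries of set 4 lie above most others of their strain.

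Culture sets of 1 strain differed in the keratins at the axon stage. In B6, Krt8 was 50 to 71.8 CPM in all 8 libraries of culture sets 3 and 4, against 4.61 to 29.2 CPM in the 7 libraries of sets 1 and 2. In WSB, set 4 had 51.2 CPM in ID-8 cut, 9.57 in ID-8 uncut, 18.4 in control cut and 9.23 in control uncut cultures, each the highest of its group. In the ID-8 cut library of set 4, Krt18 was 6.25 CPM, so that the Krt8 to Krt18 ratio was 8.19, above the 1.06 to 1.43 of all NPC libraries.

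With the library block as a term, neither ID-8 nor axotomy moved a member past the threshold at the axon stage. All 4 contrasts of ID-8, all 4 of axotomy and both differences of responses called 0 members and 0 genes by edgeR, so that 0% of the genes tested were called in each. At an unadjusted p under 0.05 they held 0 to 2 members and 72 to 1380 genes, and DESeq2 called 0 members and 1 to 97 genes. Cdh1 had 0.404, 5.63 and 4.37 CPM in WSB ID-8 uncut libraries, against 0.109, 0.751, 0.413 and 1.83 CPM in WSB control uncut libraries (2.30 ± 0.96, adjusted p = 0.599 by edgeR). For axotomy in WSB ID-8 cultures, Krt7 had 0.24, 0.247, 1.86 and 1.68 CPM in cut and 0.0735, 0.172 and 0.344 CPM in uncut libraries (2.41 ± 0.87, adjusted p = 0.677 by edgeR). These fits held no term for the culture set, each of which supplied libraries of several treatments. With the culture set as a replicate block, ID-8 called 1 member, Cdh1, in WSB uncut cultures, where 3.11% of genes passed. It called 0 members in WSB cut, B6 uncut and B6 cut cultures, where 1.97%, 1.22% and 1.52% of genes passed. Axotomy called 0 members in all 4 contrasts with that block.

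Some of the other epithelial lists at the axon stage held many lower calls in WSB. In control uncut cultures, 7.56% of all genes tested were lower and 5.68% higher. In control uncut cultures, 6 of 10 desmosome genes were lower, led by Dsg2 (-2.53 ± 0.55), and 10 of 17 regulators and membrane genes, led by St14 (-2.95 ± 0.53) and Ovol2 (-5.28 ± 1.16). Of 15 tight junction genes, 2 were lower, Cldn4 (-3.71 ± 1.02) and Cldn1 (-1.97 ± 0.57). Of 10 transition factors and mesenchymal genes, 1 was higher, Zeb1 (0.64 ± 0.14), and 3 were lower, including Snai1 (-2.85 ± 0.83). Beside them, 4 of 9 trophoblast markers, 4 of 10 pluripotency markers and 1 of 10 endoderm markers were lower. The counts for the tight junction genes and the endoderm markers were near the share of all genes. Summed endoderm markers were 41 to 61.9 CPM in WSB control uncut and 38.6 to 316 CPM in B6 control uncut libraries, and their part was not tested.

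Across the 16 group means, the genes most like the keratins, by Pearson r on log2(CPM + 1) among 16429 genes, were Eps8l2 (0.989), Rhox6 (0.983), Rcor1 (0.981), Rhox9 (0.98) and AI661453 (0.978), all with their highest mean in NPC B6 control libraries. Those most like the junction genes were Large2 (0.993), Tex10 (0.988), Rnaseh2b (0.987), Shmt1 (0.987) and Spint1 (0.986), of which the first 4 peaked in NPC B6 ID-8 libraries. Those most like the regulators were Large2 (0.989), 2610528J11Rik (0.988), Spint1, Hat1 and Trim6 (0.987 each). These values are descriptive: the 16 groups share library blocks and the large step between NPC and the later stages.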

How the data were processed

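RNA-seq of polyadenylated RNA from 76 sequencing runs was merged to 70 libraries by summing the repeat runs of 6 libraries. The deposited values are expected counts per gene: 9.318% were not whole numbers, and the submitters' processing notes name Bowtie2, RSEM, featureCounts, limma and build GRCm38, with no roles or versions. No other build was named for either strain, and the effect of strain sequence on the counts was not tested. Sums were rounded to whole counts. Symbols came from GENCODE M21 and matched 37607 of the 38924 genes. Samples were grouped by the labels, and library blocks and culture sets were read from the sample names. The tests were edgeR 4.0.16 quasi-likelihood fits (R 4.3.3, TMM scaling, low-count filter of filterByExpr) over all groups of a stage. The library block was a term at the NPC and axon stages and not at maturation. Stages were compared in a fit of control libraries, uncut at the axon stage. That fit had no block term, and its NPC and axon groups were split by block. P-values were adjusted by Benjamini-Hochberg over all genes of a comparison at a threshold of 0.05. The fit held 17248 genes at NPC, 16954 at maturation, 18106 at the axon stage and 19667 between stages.

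Alternatives were DESeq2 1.42.0, other size factors, no filter, first runs only, single library blocks or culture experiments, replicate blocks and leaving out each library; 9 of them were added after the data were seen. Same-numbered control and ID-8 libraries correlated in their deviations from the group means above 0.1 in 3 of 3 NPC pairs of the first library block in each strain, and libraries of 1 maturation experiment did so in 8 of 8 pairs in each strain. The members and gene lists were chosen with earlier results of these data known. Every member is described, and up to 4 called genes with the smallest p are named from any other list. CPM is a library's count per 1e6 of its total. Ratios needed at least 10 counts of each gene. Floors are 3 counts.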

Additional observations from a re-analysis of the deposited data

Results flagged for a closer look

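In 140 combinations of a member and a group, 14 had a highest or lowest library far from the rest of its group by Dixon's criterion. The criterion is set to flag about 1 in 20 groups of independent, normally distributed values. CPM near 0 are not such values, and a group with counts in 1 library alone is always flagged. The combinations also share libraries, so the 14 cannot be set against a rate expected by chance. Several of the 14 lay in WSB culture set 4 at the axon stage. In control cut cultures, replicate 4 had 18.4 CPM of Krt8 where the others had up to 1.98, 10.3 CPM of Krt18 where they had up to 1.29, and 4.23 CPM of Krt19 where they had up to 0.776. In ID-8 cut cultures, replicate 4 had 51.2 CPM of Krt8 and the others up to 8.18. In control uncut cultures, replicate 4 had 0.416 CPM of Cldn6 and the others up to 0.0295. These libraries belonged to a library block that held no B6 axon library.

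At maturation, WSB ID-8 replicate 4 had 10.6 CPM of Cdh1 and the others up to 2.79. B6 ID-8 replicate 1 had 3.06 CPM of Krt8 and the others up to 0.455, and it alone held Cldn7, at 0.0281 CPM. WSB control replicate 3 was low in Krt18, at 3.71 CPM where the others had 6.01 to 6.05, and it alone held Esrp1, at 0.127 CPM. WSB control replicate 1 was low in Grhl2, at 0.117 CPM where the others had 0.677 to 0.771, and Cldn6 was found in WSB ID-8 replicate 2 alone, at 0.0378 CPM. At NPC, WSB ID-8 replicate 2 had 17.6 CPM of Cldn6 and the others up to 5.19. At the axon stage, Esrp1 was found in WSB control cut replicate 1 alone, at 0.0599 CPM.

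The response to ID-8 differed between the strains for Cldn6 at NPC, by -3.47 on the log2 scale (WSB minus B6), and for Cdh1 at maturation, by 3.96.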

How the results depend on the processing

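No member's call reversed under any alternative run. Under alternatives other than leaving out a library, 538 calls of members were kept and 50 were lost, and leaving out a library kept 840 and lost 70; the cause of the changes was not tested. Of the counts of members called, 180 stayed within 1.5 times and 35 did not. DESeq2 called 2 members for ID-8 in WSB progenitors, 2 for the difference of NPC responses, 1 for ID-8 in WSB at maturation and 5 for the strains in ID-8 cut cultures. Without the library block, the strain counts at the axon stage were 3 in control uncut, 4 in control cut and 0 in ID-8 cut cultures, and in the shared block alone they were 2 in ID-8 uncut and 0 in ID-8 cut cultures. The first NPC library block alone called 1 member for ID-8 in B6, 0 in WSB and 0 for the difference of responses, with or without the replicate block, and the second block alone called 1, 0 and 0, and 1 between untreated strains. The first culture experiment at maturation alone called 7 between untreated strains, 1 between strains with ID-8, 1 for ID-8 in WSB and 3 for the difference of responses. The second alone called 0 between untreated strains, 2 for ID-8 in WSB and 0 for the difference. Counts in this paragraph are given without the share of all genes called in the same fit. They do not tell a change in the members from a change in calls over all genes.

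Names in the deposited table match control to ID-8 libraries of the second NPC block, but nothing says what they mark, and 2 of 3 such pairs in each strain correlated above 0.1. With these and the replicate numbers of the first block as a replicate block, the NPC counts were 6 for ID-8 in B6 (51.4% of all genes called), 5 in WSB (18.7%) and 4 for the difference (20%), and in the second library block alone 5, 5 and 7. The counts of the second block alone stand without the share of all genes called. With the experiment as a replicate block, 1 member was called for ID-8 in WSB at maturation, and with the culture set, whose libraries correlated above 0.1 in 19 of 21 pairs in WSB and 21 of 21 in B6, as a replicate block 1 was called for ID-8 in WSB uncut axon cultures (Cdh1 at 2.35, adjusted p = 0.0234 by edgeR), with or without ID-8 cut replicate 3. The block changed no other count by over 1.5 times. Strain comparisons could not be fitted with pairs or sets, which lie within a strain.

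Leaving out 1 library gave 0 to 2 members for ID-8 in WSB progenitors, 2 to 4 for ID-8 in B6 progenitors, 0 to 2 for the difference of NPC responses, 1 to 3 between untreated strains at maturation, 1 to 2 between strains with ID-8, 4 to 6 for ID-8 in B6, 0 to 1 for ID-8 in WSB and 0 to 1 for the difference. Between strains at the axon stage it gave 5 to 8 in control uncut, 5 to 7 in control cut, 1 to 5 in ID-8 uncut and 0 to 5 in ID-8 cut cultures. The lowest came without WSB control uncut replicate 3 (5), without WSB ID-8 uncut replicate 2 (1), and without WSB ID-8 cut replicate 1, 2 or 4 or B6 ID-8 cut replicate 2 or 3 (0). The NPC strain counts stayed at 9 and 10, and the stage counts at 10. Summing members with near-identical copies was not run, since the copy of Krt8 is not in the table used here. Depth limits Cldn6, Cldn7 and Esrp1 at the later stages.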
